A study of Rattus norvegicus with 59 samples.

Results

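The amygdala of inbred alcohol-preferring rats (iP) was compared with that of inbred non-preferring rats (iNP). Of the 59 arrays of the series, the 12 whose titles name the amygdala were used, 6 from iP animals 1 to 6 and 6 from iNP animals 7 to 12. All rats were adult males kept on chow and water, and the labels name no alcohol exposure in either group. The design text calls the strains iP5C and iNP1. Each strain is a single inbred line, so alcohol preference and every other fixed difference between these strains cannot be told apart. Tissue was dissected whole after decapitation, and RNA of each rat was hybridised to its own Affymetrix rat expression array. The array reads short stretches of each transcript with groups of probes called probe sets. The strain was taken from the titles, with which the genotype label agrees, because the source name gives 1 strain for every array.

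The amygdala is a group of nuclei that attaches emotional value to sensory cues and drives fear, anxiety and the hormonal answer to stress. Its central nucleus is built largely of GABA neurons that also release peptides such as corticotropin-releasing hormone, dynorphin, somatostatin and neuropeptide Y. It is widely studied in alcohol research because its peptide systems shift with stress and with alcohol withdrawal. The comparison asks which transcripts in this tissue differ between a strain selected for drinking much alcohol and one selected for drinking little.

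A few arrays stood apart, and they are described first because they touch every result. When each amygdala array was correlated, across 5244 probe sets, with the profile of each of the 5 regions (each region's departure from the others), the array of iP animal 1 was nearest cortex (r = 0.31) and its correlation with amygdala was -0.20. The arrays of iNP animals 7 and 8 were nearest accumbens (r = 0.30 and 0.28) and had correlations of 0.19 and 0.22 with amygdala. The other 9 arrays were all nearest amygdala, with r between 0.43 and 0.71. These correlations run across probe sets, which are not independent replicates, and only describe the arrays. Summed signals of marker genes are given here in units of 1000 on the linear scale. The sum of 10 cortex marker genes was 36.1 in iP animal 1 and 18.6 to 20.8 in the other iP arrays, and the median cortex array had 35.1. Myelin genes summed to 105.5 in iP animal 1, against 47.0 to 64.9 in the rest of that group. The median myelin sum was 82.4 in cortex, 105.9 in striatum, 110.5 in hippocampus and 95.9 in accumbens. The myelin value thus does not single out cortex. Nr2f2, a transcription factor of caudal ganglionic and amygdalar neurons, had a median log2 signal of 7.45 over the amygdala arrays and 4.03 over the cortex arrays, and it was at the floor of 4.00 in iP animal 1. The marker list for amygdala was not specific on this array. Only 3 of its 14 measured genes (Prkcd, Nr2f2 and Sst) had their highest median in amygdala. For Prkcd that median was 9.74, with 9.73 in striatum, and for Sst it was 13.78, with 13.77 in cortex. Gal and Esr1 were near the floor, with medians of 4.98 and 5.74. The 14 genes summed to 32.0 in iP animal 1, 27.0 to 31.8 in the other iP arrays and 33.9 in the median cortex array. Results are therefore given with all 12 arrays and again without iP animal 1, and the calls are also given without iP 1, iNP 7 and iNP 8 together.

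**Figure D1:**
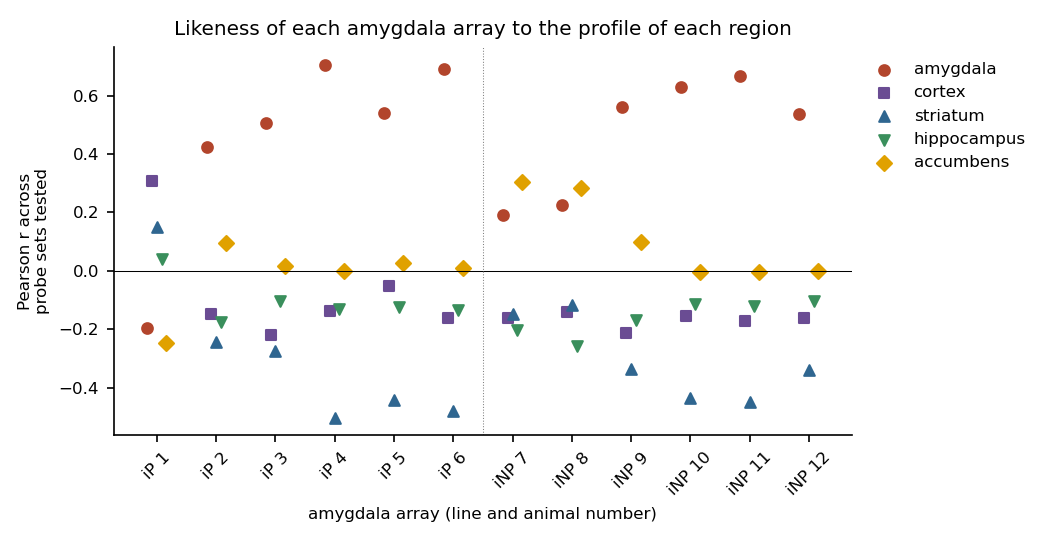
Pearson correlation (vertical axis) of each amygdala array (horizontal axis, strain and animal number) with the profile of each brain region, over 5244 probe sets. The array of iP animal 1 lies nearest cortex at 0.31, iNP animals 7 and 8 lie nearest accumbens, and the other 9 arrays lie nearest amygdala, between 0.43 and 0.71.

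No measure of RNA quality passed 0.05 between the strains in an exact permutation test (two-sided, 6 against 6, smallest possible p 0.0022). Median signal was 327 ± 14.6 in iP and 343 ± 24.7 in iNP (SD, n = 6 each; exact permutation p = 0.245). The log2 ratio of 3′ to 5′ signal, which rises as RNA degrades, was 0.19 ± 0.21 and 0.19 ± 0.10 for Gapdh (SD, n = 6 each; exact permutation p = 1), and 0.67 ± 0.24 and 0.61 ± 0.20 for beta-actin (exact permutation p = 0.617). The beta-actin ratio was 0.72 to 1.13 in animals 1, 2, 7 and 8 and 0.43 to 0.60 in the other 8, a grouping that cuts across the strains; with it as a covariate 55 probe sets were called in place of the 38 described next. For the share of probe sets under the floor the exact permutation p was 0.158, and over all 4 such tests the smallest adjusted exact p was 0.489.

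In the amygdala 38 of 5244 probe sets differed between the strains at a limma Benjamini-Hochberg adjusted p under 0.05, which is 0.725% of those tested. Of these, 16 (0.305% of those tested) were higher in iP and 22 (0.420%) were lower; with each array centred on its median there were 33 calls, 17 higher and 16 lower. The count fell to 22 without the array of iP animal 4 and to 25 without that of iNP animal 9, 10 or 11. The differences are given as iP minus iNP on the log2 scale, so that 1 is a doubling of signal, with the standard error of the fit. The median size among the called probe sets was 0.73, the smallest was 0.48, and 13 exceeded 1 (5 higher and 8 lower). The median over all probe sets tested was -0.02. Called probe sets stood for 29 genes with a single symbol, 14 higher and 15 lower, and 6 called probe sets carry no symbol or several. In 35 of the 38 the iP and iNP arrays did not overlap at all, and over all probe sets tested 60 (1.14%) had no overlap. At an unadjusted p under 0.05, 459 probe sets differed, where 262.2 would be called if no probe set differed. Because these are whole tissue samples, fewer cells of a type and less RNA per cell cannot be told apart for any gene below.

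The largest difference was in Hs6st1, which encodes an enzyme that adds sulfate groups to heparan sulfate chains at the cell surface. Its log2 signal ran from 9.79 through a median of 10.76 to 11.30 in iP, and from 5.90 through 6.52 to 6.87 in iNP. No iP array came near the iNP range, and the signal was 19.5-fold higher in iP (4.28 ± 0.25, limma adjusted p = 1.26e-07). The array of iP animal 1 had the highest value, 11.30. Among the 12 tested genes of heparan sulfate and extracellular matrix, Hs6st1 was the only one called, where 0.882% of all tested genes with 1 symbol were called. Its fellow heparan sulfate enzyme Ndst1 differed by -0.73 ± 0.43 (limma adjusted p = 0.65), and the median of the list was -0.07.

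Akap11, which tethers protein kinase A to sites in the cell, had closely grouped values in iP. Its 6 iP arrays lay between 11.08 and 11.18 (median 11.14), and its iNP arrays between 8.50 and 9.24 (median 8.86). The difference was 2.25 ± 0.11 (limma adjusted p = 3.06e-08), and the highest iP value was again that of animal 1. Of the 33 tested genes of cyclic AMP and calcium kinase signalling, Akap11 alone was called (0.882% over all tested genes with 1 symbol). The list had a median of -0.13.

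Mfsd10, a membrane transporter of the major facilitator family, rose by 2.14 ± 0.34 (limma adjusted p = 0.00689). In iP it ran from 8.46 through 8.75 to 9.03. In iNP animals 7 and 8 stood at 7.83 and 7.66, while animals 9 to 12 lay between 5.90 and 6.12. The strains did not overlap, but the gap was wider against the last 4 animals. Without iP 1, iNP 7 and iNP 8 the difference was 2.70.

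Arpc4 encodes a subunit of the Arp2/3 complex, which starts branched actin filaments. Its iP arrays ran from 11.41 through 11.85 to 12.05 and its iNP arrays from 10.26 through 10.42 to 10.50, a difference of 1.39 ± 0.11 (limma adjusted p = 7.87e-06). Here iP animal 1 had the lowest iP value and still lay above every iNP array. Pgk1, the glycolytic enzyme that makes ATP from bisphosphoglycerate, ran from 13.26 through 13.43 to 13.77 in iP and from 11.99 through 12.31 to 12.78 in iNP (1.10 ± 0.14, limma adjusted p = 0.00141). A second tested probe set for Pgk1, built on another transcript record, differed by only 0.15 ± 0.07 (limma adjusted p = 0.582), so the probe sets for this gene disagree. The other 18 tested genes of glycolysis and pyruvate metabolism were not called (0.882% were over all genes), and the list median was 0.05.

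**Figure D2:**
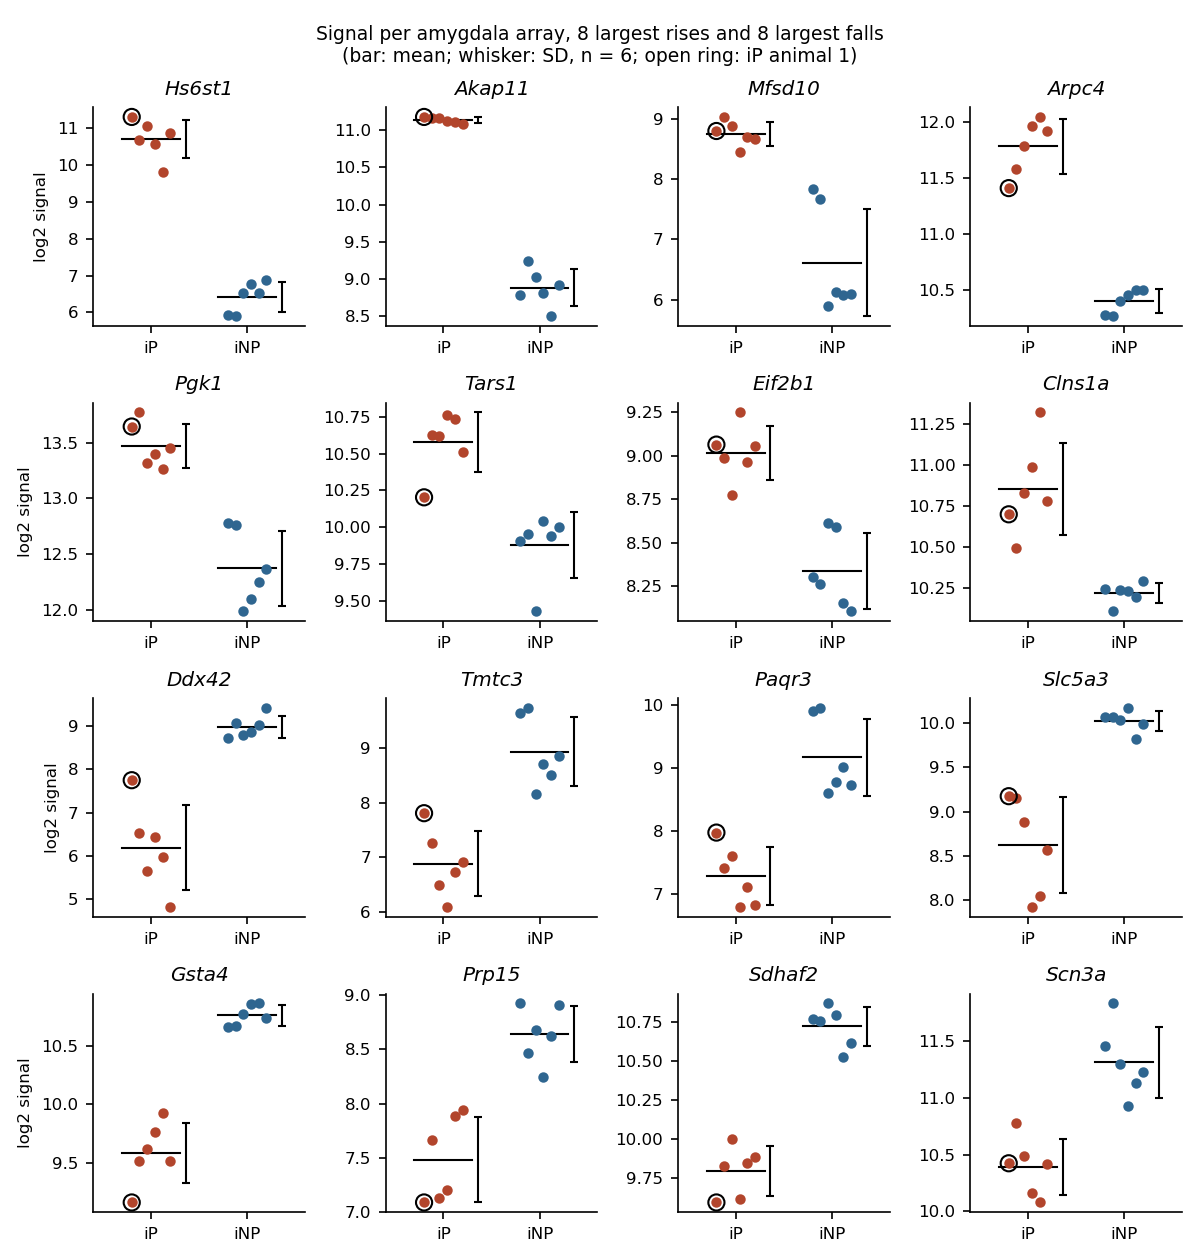
Log2 signal (vertical axes) of the 8 genes with the largest rise and the 8 with the largest fall, in the 6 iP and the 6 iNP amygdala arrays. Points are animals, horizontal bars are means and whiskers are SD (n = 6); the open ring marks iP animal 1, which had the highest iP signal in Hs6st1, Akap11, Ddx42, Tmtc3, Paqr3 and Slc5a3 and the lowest in Arpc4, Tars1, Gsta4, Prp15 and Sdhaf2. In all 16 genes the strains do not overlap.

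Among the smaller rises, Tars1, which charges threonine onto its transfer RNA, ran from 10.20 through 10.62 to 10.76 in iP and from 9.43 through 9.95 to 10.04 in iNP (0.70 ± 0.12, limma adjusted p = 0.0150). Eif2b1, a subunit of the factor that recharges eIF2 with GTP, rose by 0.68 ± 0.13 (limma adjusted p = 0.0267). Eif2s3, the subunit of eIF2 that binds GTP, rose by 0.51 ± 0.11 (limma adjusted p = 0.0384), but the strains overlapped because iNP animal 11 reached 10.85 while iP animal 6 was at 10.81. A second probe set of Eif2b1 on the same record differed by 0.30 ± 0.18 (limma adjusted p = 0.663).

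Amino acid and creatine enzymes moved in both directions. Of 15 tested genes of serine, asparagine and creatine synthesis, 2 rose, 1 fell and 12 were not called, and the list median was 0.09. Over all tested genes with 1 symbol 0.882% were called, and the list was chosen with earlier results of these data known. Asns, which makes asparagine, ran from 9.26 through 9.35 to 9.77 in iP and from 8.58 through 8.78 to 9.06 in iNP (0.60 ± 0.12, limma adjusted p = 0.0286). Gatm, which catalyses the first step of creatine synthesis, ran from 10.44 through 10.57 to 10.80 against 9.71 through 10.06 to 10.32 (0.59 ± 0.12, limma adjusted p = 0.0384). Both sets of arrays were fully separated. Phgdh, the first enzyme of serine synthesis, went the other way: 11.13 through 11.23 to 11.51 in iP and 11.80 through 11.91 to 12.19 in iNP (-0.70 ± 0.09, limma adjusted p = 0.00173). A further probe set for Phgdh on the same record was also called (-0.60 ± 0.11, limma adjusted p = 0.0159), and one on another record differed by -0.56 ± 0.16 (limma adjusted p = 0.217). Among the brightest uncalled members, Ckb, the brain creatine kinase, differed by 0.18 ± 0.18 and Glul, glutamine synthetase, by -0.07 ± 0.11.

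The remaining rises were each between 0.50 and 0.63. Clns1a, a chloride-current and splicing-assembly protein, rose by 0.63 ± 0.12 (limma adjusted p = 0.0205) with iP arrays from 10.50 to 11.32 and iNP arrays from 10.11 to 10.29. Its other tested probe sets, on another record, differed by 0.00 and -0.13. Pcm1, a centriolar satellite scaffold, rose by 0.63 ± 0.10, with iP from 9.93 to 10.18 and iNP from 9.23 to 9.65. Chordc1, a co-chaperone of Hsp90, rose by 0.63 ± 0.12, and its strains overlapped, since iNP animal 7 reached 9.54 and iP animal 6 was at 9.51. Tmem126b, an assembly factor of respiratory complex I, rose by 0.50 ± 0.11, while a second probe set on its record differed by -0.12 ± 0.12.

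Ddx42, an RNA helicase, showed the largest fall. Its log2 signal ran from 4.82 through 6.20 to 7.75 in iP and from 8.71 through 8.94 to 9.42 in iNP. The difference was -2.79 ± 0.38 (limma adjusted p = 0.00173), with 6.90-fold more signal in iNP. The iP arrays spread far more than the iNP arrays, with SDs of 0.98 and 0.25. The highest iP value, 7.75, was that of animal 1, and without that array the difference was -3.10 ± 0.30.

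Tmtc3, which adds mannose to proteins in the endoplasmic reticulum, and Paqr3, a Golgi membrane protein that restrains Raf kinase, differed by -2.06 ± 0.33 and -1.88 ± 0.28 (limma adjusted p = 0.00634 and 0.00404). Tmtc3 ran from 6.09 through 6.82 to 7.81 in iP and from 8.17 through 8.79 to 9.74 in iNP. Paqr3 ran from 6.80 through 7.27 to 7.98 and from 8.61 through 8.90 to 9.96. In both genes iP animal 1 was the highest iP array and iNP animals 7 and 8 were the highest iNP arrays. The strains did not overlap in either gene.

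Slc5a3 carries myo-inositol, an osmolyte, into cells. It ran from 7.93 through 8.72 to 9.18 in iP and from 9.82 through 10.05 to 10.17 in iNP (-1.40 ± 0.20, limma adjusted p = 0.00311). Of 10 tested genes of osmolyte transport and cell volume, Slc5a3 fell, Clns1a rose and 8 were not called, with a list median of 0.12. Over all tested genes with 1 symbol 0.882% were called, and the list was chosen with earlier results of these data known. The taurine transporter Slc6a6 differed by -1.69 ± 0.67 (limma adjusted p = 0.47), with an SD of 1.84 among the iP arrays.

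Gsta4 encodes a glutathione transferase that clears hydroxynonenal, a product of lipid oxidation. The strains were wide apart, with iP arrays from 9.16 through 9.57 to 9.92 and iNP arrays from 10.66 through 10.76 to 10.86 (-1.18 ± 0.12, limma adjusted p = 8.79e-05). A second probe set on the same record differed by -1.20 ± 0.40 (limma adjusted p = 0.345). Gsta4 was the only called member among 26 tested genes of glutathione and oxidant defence (0.882% over all genes), whose median was -0.05.

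Prp15, a gene of the proline-rich salivary protein family, ran from 7.09 through 7.44 to 7.94 in iP and from 8.25 through 8.65 to 8.92 in iNP (-1.15 ± 0.20, limma adjusted p = 0.0127). Its probe set is one that the array maker marks as shared by a gene family, so the member it reads is uncertain. Another Prp15 probe set, on another record, was below the filter and not tested. Its means went the other way, with 6.43 in iP and 5.64 in iNP. Without iP 1, iNP 7 and iNP 8 the adjusted p was 0.0762. When the spread was estimated from all 59 arrays the limma adjusted p was 0.208.

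Further falls lay between 0.52 and 0.93. Sdhaf2, an assembly factor of succinate dehydrogenase, ran from 9.59 through 9.84 to 10.00 in iP and from 10.53 through 10.76 to 10.87 in iNP (-0.93 ± 0.10, limma adjusted p = 0.00015). It was the only called gene of the 28 tested genes listed for the respiratory chain, each by its brightest tested probe set (0.882% over all genes). Tmem126b, the complex I assembly factor described above, is not in that count of calls, and its called probe set rose by 0.50. Scn3a, a voltage-gated sodium channel abundant in the developing brain, ran from 10.08 through 10.42 to 10.78 and from 10.93 through 11.26 to 11.83 (-0.92 ± 0.15, limma adjusted p = 0.00767). Its second probe set on the same record gave -0.93 ± 0.19 and was also called. Sephs2, which makes the selenium donor for selenoproteins, ran from 8.06 through 8.31 to 8.69 in iP and from 8.84 through 9.10 to 9.54 in iNP (-0.77 ± 0.15, limma adjusted p = 0.0250). Lysmd4, a LysM-domain protein, fell by 0.73 ± 0.15 (limma adjusted p = 0.0384), and its strains overlapped only through iP animal 1, at 11.30, above the lowest iNP array at 11.21.

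Immune and matrix genes were among the smaller falls. RT1-A, a classical class I molecule of the rat major histocompatibility complex, ran from 10.20 through 10.53 to 10.70 in iP and from 10.96 through 11.10 to 11.21 in iNP (-0.62 ± 0.11, limma adjusted p = 0.0127). RT1-CE12, another class I gene, ran from 10.86 through 11.05 to 11.24 and from 11.55 through 11.60 to 11.73 (-0.58 ± 0.08, limma adjusted p = 0.0020). Both probe sets are marked as shared by a gene family, so signal of related class I genes cannot be told apart. Of 18 tested genes of antigen presentation these 2 fell, none rose, and the list median was -0.08. Over all tested genes with 1 symbol 0.882% were called, and the list was chosen with earlier results of these data known. The light chain B2m differed by -0.36 ± 0.11 and the peptide transporter Tap1 by -0.50 ± 0.15 (limma adjusted p = 0.27 for both).

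P2ry12, a receptor for ADP that marks resting microglia, ran from 8.95 through 9.24 to 9.51 in iP and from 9.70 through 9.82 to 10.15 in iNP (-0.61 ± 0.12, limma adjusted p = 0.0274). It was the only one called of 9 tested microglial and macrophage genes (0.882% over all genes), and the list median was -0.11. Cx3cr1 differed by 0.00 ± 0.16, C1qb by 0.01 ± 0.18 and Ctss by -0.11 ± 0.08. The summed signal of the 13 listed microglial genes on the array lay between 13.5 and 19.4 in iP and between 15.3 and 17.1 in iNP, so the ranges overlapped. Fn1, the matrix protein fibronectin, ran from 10.33 through 10.53 to 10.85 and from 10.91 through 11.07 to 11.22 (-0.52 ± 0.10, limma adjusted p = 0.0320). Its other tested probe sets, on another record, gave 0.19 ± 0.21 and -0.89 ± 0.20 (limma adjusted p = 0.794 and 0.0652). Among 13 tested meningeal and fibroblast genes Fn1 alone was called (0.882% over all genes). The sum of the 14 listed genes on the array was 29.3 in iP animal 1, against 41.5 to 55.1 in the other iP arrays and 45.3 to 60.7 in iNP.

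For 9 called genes another tested probe set existed, and for Pgk1, Clns1a and Tmem126b it showed a difference near 0. The other tested probe sets of Fn1 differed by 0.19, opposite in sign to its call, and by -0.89. That of Eif2b1 differed by 0.30, and none of these was called. Whether base differences between the strains under the probes contribute to any of these values was not tested, since the probe sequences were not used here.

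Leaving out iP animal 1 gave 51 calls (0.973%), 21 higher (0.400%) and 30 lower (0.572%). Of the 38, 35 were called again and 16 were added. The 3 that were not called again were Gatm (0.55 ± 0.13, limma adjusted p = 0.0591), Eif2s3 (0.49 ± 0.11, 0.0574) and Tmem126b (0.48 ± 0.11, 0.0639). The median SD within iP over all probe sets tested was 0.26 with animal 1 and 0.22 without it, and it was 0.23 within iNP. Among the 51, whose choice did not use animal 1, its value was nearer to the mean of the other iP arrays than to the iNP mean in 33, and in 12 of the 15 with a difference over 1. It lay beyond the iNP range on the iP side in 37. Without iP 1, iNP 7 and iNP 8 there were 29 calls (0.553%), and 20 of the 29 called genes were still called. The 9 that were not were Eif2b1, Clns1a, Pcm1, Asns, Eif2s3, Prp15, Lysmd4, P2ry12 and Fn1. Over all alternatives, Asns, Chordc1, Eif2b1, Eif2s3, Fn1, Gatm, Lysmd4, P2ry12, Sephs2 and Tmem126b each lost the call in 10 or more of up to 29 settings.

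**Figure D3:**
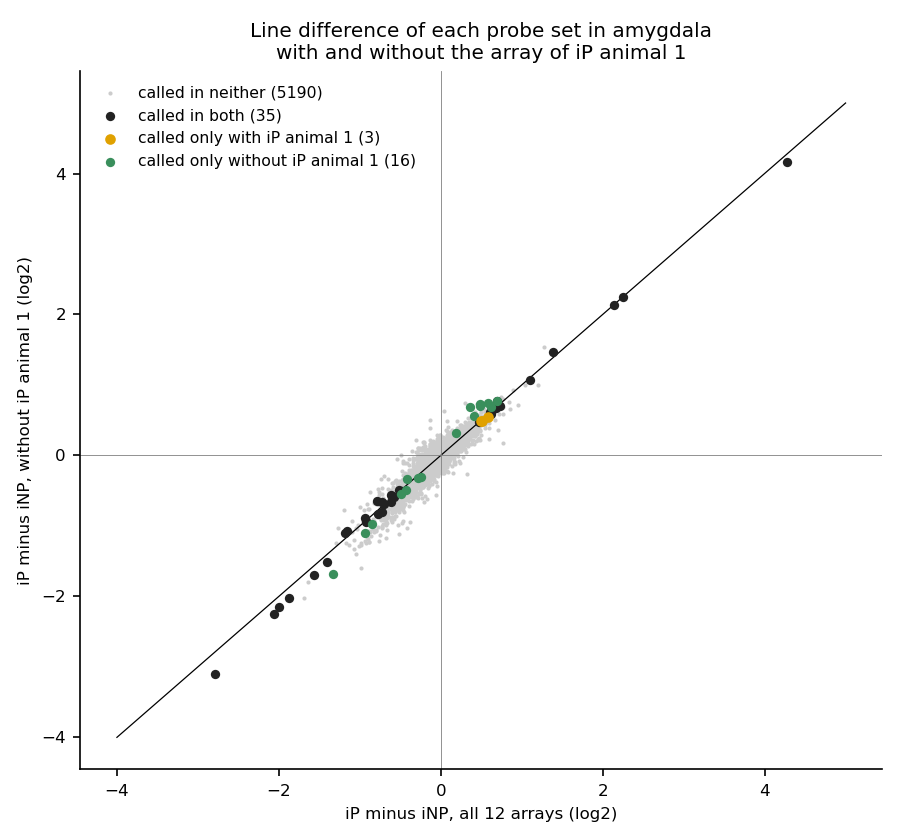
Line difference (iP minus iNP, log2) of each of the 5244 probe sets with all 12 arrays (horizontal axis) and without iP animal 1 (vertical axis); the diagonal marks equal values. The 35 probe sets called in both fits lie close to the diagonal, 3 were called only with the array and 16 only without it.

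Of the genes called only without iP animal 1, RT1-Bb had the largest difference. It encodes a class II beta chain, part of the molecule that presents peptides to helper T cells. Without animal 1 it ran from 7.51 to 8.67 in iP and from 8.74 to 9.28 in iNP (-1.10 ± 0.19, limma adjusted p = 0.0121), and animal 1 was at 8.95, inside the iNP range. A second tested probe set of RT1-Bb differed by 0.05 without animal 1 (limma adjusted p = 0.909). RT1-Da, a class II alpha chain, went up: 9.26 to 9.74 in iP and 8.64 to 9.08 in iNP, with animal 1 at 8.06, the lowest of all 12 arrays (0.73 ± 0.13, limma adjusted p = 0.0134). Its second probe set also differed by 0.73 (limma adjusted p = 0.0874).

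Rises added without animal 1 also included Cul2, a ubiquitin ligase scaffold (0.77 ± 0.16), Tnfrsf21, a death receptor (0.74 ± 0.13), Hspa2, a heat shock chaperone (0.71 ± 0.15), Pcmtd1 (0.69 ± 0.14), Hrk, which promotes cell death through BCL2 proteins (0.68 ± 0.14), and Lrpap1, a chaperone of lipoprotein receptors (0.55 ± 0.12). Falls added were Vps52, a tether of vesicles at the Golgi (-0.55 ± 0.10), Phkg1, the catalytic subunit of phosphorylase kinase (-0.49 ± 0.09), and the abundant transcripts Rpl6 (-0.34 ± 0.06), Tuba1b (-0.31 ± 0.06) and Mdh1 (-0.30 ± 0.06). In iP animal 1 Hrk stood at 8.30, with 9.85 to 10.57 in the rest of its group and 9.35 to 9.91 in iNP. Hspa2 was likewise low there, at 8.14 against 9.08 to 9.65 in the other iP arrays. Other probe sets for Tnfrsf21 (0.06), Hrk (0.16 and 0.14) and Lrpap1 (-0.04, 0.10 and 0.20) differed less and were not called.

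The same rats gave the other brain regions, so the regional values that follow are not independent animals. Of the 29 genes called in amygdala, 28 had the same sign in all 4 other regions. The share with a common sign over all probe sets was not counted. In each region's own fit, 7 of the 29 were called in cortex, 19 in striatum, 16 in hippocampus and 13 in accumbens, where 0.229%, 0.839%, 0.667% and 0.572% of all probe sets were called. Cortex had only 5 iP arrays, and that of iP animal 5 stood apart, with log2 3′ to 5′ ratios of 6.14 for Gapdh and 4.42 for beta-actin and the lowest median signal of the 59 arrays (254). Without it, 0.458% of probe sets and 14 of the 29 genes were called in cortex, a fit chosen after seeing the data. Hs6st1 differed by 3.44 ± 0.85 in cortex (4.48 ± 0.26 without iP animal 5), 4.36 ± 0.18 in striatum, 4.05 ± 0.21 in hippocampus and 4.95 ± 0.24 in accumbens. Akap11, Arpc4, Pgk1, Ddx42, Paqr3, Gsta4 and Sdhaf2 were called in all 5 regions with every array kept. Those called in amygdala and in no other region, with or without cortex of iP animal 5, were Tars1, Eif2b1, Pcm1, Gatm, Eif2s3, Tmem126b and Prp15, 7 genes. For Pcm1 the amygdala difference of 0.63 ± 0.10 stood beside 0.28 ± 0.15 in cortex, 0.20 ± 0.12 in striatum, 0.15 ± 0.13 in hippocampus and 0.40 ± 0.13 in accumbens. Prp15 was the gene without a common sign: -1.15 ± 0.20 in amygdala, 0.00 ± 0.43 in cortex, 0.11 ± 0.37 in striatum, 0.89 ± 0.31 in hippocampus and 0.21 ± 0.45 in accumbens.

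**Figure D4:**
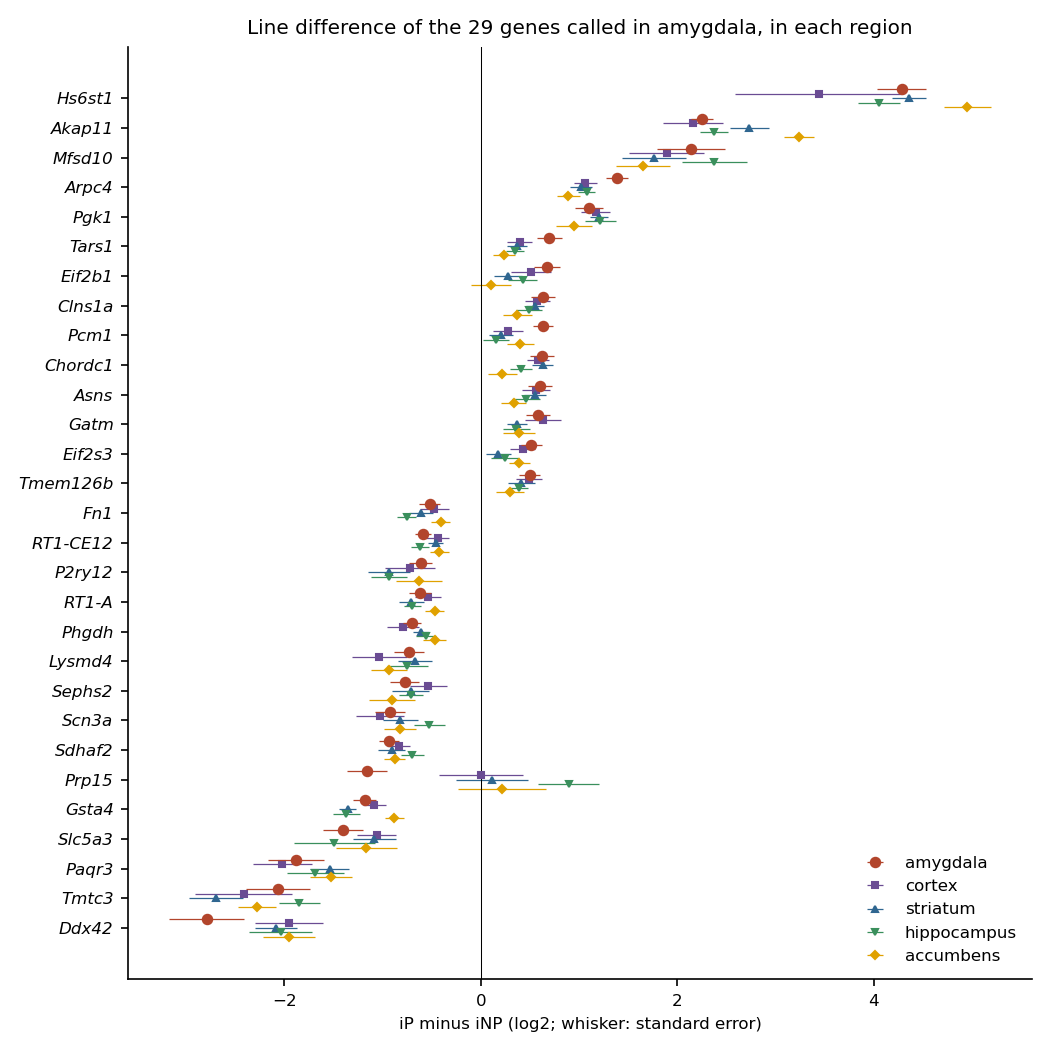
Difference between the strains (iP minus iNP, log2, horizontal axis; whiskers are standard errors) of the 29 genes called in amygdala, shown for amygdala and the 4 other regions of the same rats. Of the 29 genes, 28 have one sign in all 5 regions; Prp15 is at -1.15 in amygdala and between 0.00 and 0.89 elsewhere.

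Being called in one region and not in another does not show a difference, so the amygdala difference was set directly against the mean of the other 4 regions, with each animal as its own block. No probe set passed an adjusted p of 0.05 in limma, and 325 (6.20%) had an unadjusted p under 0.05. Without amygdala of iP animal 1 and cortex of iP animal 5 there were also 0 calls, with 492 probe sets at an unadjusted p under 0.05. No gene can thus be called particular to amygdala. For Tars1 the amygdala difference exceeded the mean of the others by 0.37 ± 0.11, for Pcm1 by 0.38 ± 0.14, and for Arpc4 by 0.38 ± 0.11 (limma adjusted p = 0.571, 0.714 and 0.571). For Prp15 it was lower by a log2 difference of -1.48 ± 0.40 (limma adjusted p = 0.571).

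The smallest adjusted p of this contrast belonged to Avp, the gene of the hormone vasopressin, at 0.0684 (-1.56 ± 0.32). Within amygdala it ran from 7.81 through 8.12 to 8.38 in iP and from 8.32 through 9.16 to 11.21 in iNP, a difference of -1.30 ± 0.37 (limma adjusted p = 0.217). A pair of arrays made the iNP range wide, with 9.83 in animal 7 and 11.21 in animal 8. The brighter Avp probe set, on another record, gave -0.79 ± 0.46 in amygdala (limma adjusted p = 0.639), with the highest values, 10.65 and 12.31, in the same animals. The same arrays were high in Oxt, the gene of oxytocin, at 8.96 and 10.29, where iP arrays lay between 5.23 and 6.88. Animals 9 and 12 of iNP, at 8.24 and 7.58, were also above every iP array, and animals 10 and 11, at 5.19 and 5.52, were not. Pmch, the gene of melanin-concentrating hormone, lay between 5.27 and 6.79 in iNP 7 to 11, at the floor of 4.00 in iNP 12, and between 4.00 and 4.94 in iP. Oxt and Pmch were not tested because their means over all arrays were low. These 3 hormones are made mainly by hypothalamic neurons. Pomc and Trh, from the same marker list, did not share this pattern. Pomc lay between 7.11 and 8.24 in iP and between 6.71 and 7.91 in iNP. The tested Trh probe set lay between 8.22 and 9.10 in iP and between 8.44 and 9.18 in iNP. The sum of the 12 thalamic and hypothalamic markers on the array overlapped between iP (19.0 to 24.5) and iNP (18.0 to 23.0). In that list 1 gene was at the floor on all amygdala arrays. The list holds Cck and Calb2, also amygdala markers, with amygdala median log2 signals of 12.72 and 10.64. The sum therefore does not single out neighbouring tissue. The part of neighbouring tissue in these values was not tested. Without iP 1, iNP 7 and iNP 8 the Avp difference was -0.68 (limma adjusted p = 0.257). Avp was called in this contrast without iNP 10 (-1.79, limma adjusted p = 0.00667), without iNP 11 (-1.69, limma adjusted p = 0.0360) and after quantile normalization (-1.55, limma adjusted p = 0.0449). It was further from the threshold without iNP 7 (-1.45, limma adjusted p = 0.254) and without iNP 8 (-1.24, limma adjusted p = 0.270). Next by p came Tom1l2, an adaptor of endosomal sorting (0.40 ± 0.09, limma adjusted p = 0.114), which was called without iP 2 (0.46, limma adjusted p = 0.0222). Synj1, a lipid phosphatase of synaptic vesicle recycling (-0.38 ± 0.10), Rasl11b (1.27 ± 0.35), the stress kinase Mapkapk2 (-1.36 ± 0.37) and Ralgds (-0.39 ± 0.11) followed at a limma adjusted p of 0.571 each.

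Peptide and stress genes, for which the amygdala is known, held no call; 0.882% of all tested genes with 1 symbol were called, so an empty list of this size is not a result about its genes. Of 9 tested stress peptides and receptors, 16 neuropeptide genes and 5 opioid genes none passed, with list medians of -0.06, -0.09 and -0.12. Counting each gene once, by its brightest tested probe set, 29 were tested, and their differences lay between -0.79 and 0.54. The other tested Avp probe set, described above, differed by -1.30. Npy, neuropeptide Y, had 11.05 ± 0.21 in iP and 11.36 ± 0.13 in iNP (SD, n = 6 each), a difference of -0.31 ± 0.11 (limma adjusted p = 0.381). Crh, corticotropin-releasing hormone, had 7.64 ± 0.35 and 7.68 ± 0.16, a difference of -0.04 ± 0.20 (limma adjusted p = 0.957). The glucocorticoid receptor Nr3c1 differed by -0.66 ± 0.41, with an SD of 1.06 among iP arrays, and the mineralocorticoid receptor Nr3c2 by -0.10 ± 0.11. Cck, cholecystokinin, differed by 0.54 ± 0.21 with all arrays and by 0.39 without iP animal 1 (limma adjusted p = 0.471 and 0.41). Somatostatin, Sst, differed by -0.12 ± 0.08.

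No opioid gene was called. Pdyn, prodynorphin, had 11.72 ± 0.18 in iP and 11.82 ± 0.15 in iNP (SD, n = 6 each), a difference of -0.11 ± 0.10. Penk, proenkephalin, differed by -0.34 ± 0.25 with iP animal 1 and by -0.16 without it. Pnoc differed by -0.16 ± 0.11 and the nociceptin receptor Oprl1 by -0.12 ± 0.13. Pomc, the only one of the 5 tested opioid genes with a positive difference, differed by 0.54, with iP arrays from 7.11 to 8.24 and iNP arrays from 6.71 to 7.91. The receptors Oprm1, Oprd1 and Oprk1 were on the array but below the filter, with iP and iNP means of 7.10 and 7.65, 5.21 and 5.44, and 7.28 and 7.41. Among the 9 tested candidates for alcohol preference, Gsta4 fell and 8 were not called (0.882% were called over all genes). Of those not already given, Cnr1, the cannabinoid receptor, differed by 0.12 ± 0.10, the glutamate receptors Grm7 by 0.12 ± 0.21 and Grm2 by -0.38 ± 0.35, and Neurod1 by -0.18 ± 0.18. Drd2 and Htr1b were below the filter.

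**Figure D5:**
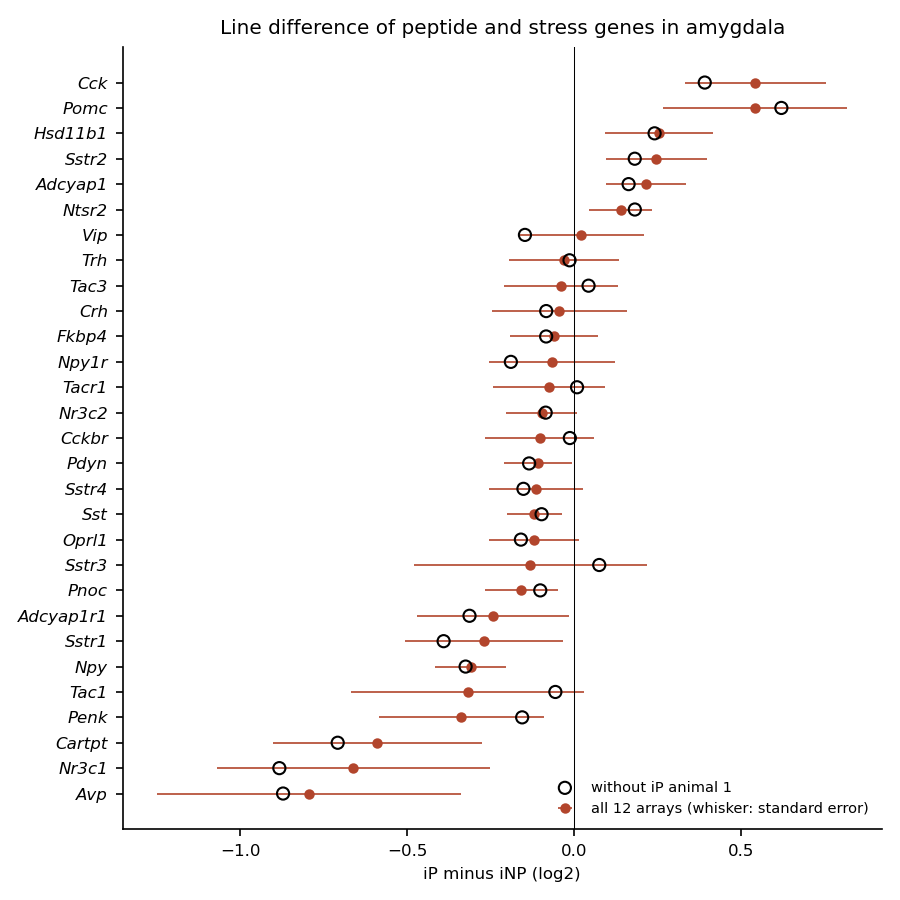
Difference between the strains (iP minus iNP, log2, horizontal axis) of the 29 tested stress, neuropeptide and opioid genes in amygdala. Each gene is shown by its brightest tested probe set. Filled points use all 12 arrays, whiskers are standard errors and open rings leave out iP animal 1. The differences lie between -0.79 (Avp) and 0.54 (Cck), and no gene was called.

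Against the same 0.882% over all genes, no call was made among 17 tested genes of GABA signalling (median -0.07), 24 of glutamate receptors and uptake (median -0.07) and 28 of monoamine and acetylcholine signalling (median -0.15). There was also none among 17 immediate early genes (median 0.00), 21 synaptic vesicle genes (median -0.06), 10 of alcohol and aldehyde oxidation (median 0.05) and 11 calcium channel genes (median -0.04). Of 15 tested sodium and potassium channel and pump genes, Scn3a alone was called. The 20 immediate early genes on the array summed to 43.5 in iP animal 1 and to 24.5 to 30.9 in the other iP arrays.

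Markers of other tissue and of blood were examined beside these results. All 17 tested striatal markers had a negative difference, with a median of -0.25, and none was called. Over all tested genes with 1 symbol, 1619 of 3174 had a positive difference. Markers of 1 tissue can move together, so the 17 are not separate observations. The sum of the 19 striatal markers on the array was 21.7 in iP animal 1 and 25.4 to 29.8 in the other iP arrays. In iNP 7 and 8 it was 33.9 and 37.6. The other iNP arrays had 24.6 to 30.7. Without these 3 arrays the median was -0.14. Of 7 tested blood genes, 5 had a negative difference, none was called and 4 had an unadjusted p under 0.05. Over all 3174 tested genes with 1 symbol, 284 had an unadjusted limma p under 0.05. The globin Hbb differed by -0.51 ± 0.16, Hbb-b1 by -0.53 ± 0.16 and Hba-a3 by -0.49 ± 0.15 (limma adjusted p = 0.29, 0.28 and 0.27). The sum of 9 blood genes ranged from 31.3 to 48.8 in iP and from 39.2 to 68.8 in iNP. The endothelial list, with 11 tested genes, had a median of -0.24 and no call. Astrocyte genes (18 tested, median -0.05) and myelin genes (12 tested, median 0.09) had none. What part these cell types have in the called genes was not tested.

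Over the 36 lists, 24 had no called member, 9 had 1 and 3 had 2 or more. Over all 3174 genes tested, each taken by its brightest probe set, 28 (0.882%) were called by the same rule, and the median difference of the 3174 was 0.01.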

How the data were processed

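The deposited values are probe set intensity on a linear scale, as the authors made them; which program they used is not stated here. Every array had a 2% trimmed mean of 1000 and was scaled no further. Signals under 16 were set to 16 and log2 transformed. Of 8799 probe sets, 59 controls and the 40% with the lowest mean over all 59 arrays were left out, leaving 5244, of which 4372 carry 1 symbol in the array annotation. The tests used limma 3.58.1 (R 4.3.3; empirical Bayes with an intensity trend, two-sided, Benjamini-Hochberg adjusted p under 0.05), 6 against 6 arrays. The contrast with the other regions used all 59 arrays, with region and animal as fixed effects. The rats of each strain belong to a single inbred line, and nothing further says how they were related. The p-values thus measure the spread between these animals within their lines, not between lines. The strains share no animal numbers and were not paired. Quality was compared by exact permutation tests, and the fits were checked on simulated data.

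Named genes are every gene with a called probe set, by its brightest called one; further genes called only without iP animal 1; the called and brightest members of the gene lists, by the brightest tested probe set; and the 8 smallest p-values of the regional contrast. The members and lists were chosen with earlier results of these data known. Lists were described by counts and medians, without a test. With no read depth on arrays, precision is limited by the number of animals.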

Additional observations from a re-analysis of the deposited data

Results flagged for a closer look

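Of 66 groups of 6 arrays examined with Dixon's criterion, 3 held a value far from the others, where chance flags about 1 in 20 groups. The beta-actin 3′ to 5′ ratio (log2) of iP animal 2 was 1.13, and the nearest other iP array had 0.72. Asns stood at 9.77 (log2 signal) in iP animal 5, with the nearest iP array at 9.40. Tars1 stood at 9.43 in iNP animal 9, with the nearest iNP array at 9.90. None of the 3 values was on the array of iP animal 1.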

How the results depend on the processing

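Leaving out each array in turn gave 22 to 51 calls in place of 38. The count moved by more than 1.5 times without iP 4 (22 calls) and without iNP 9, iNP 10 or iNP 11 (25 calls each). The regional contrast gave 0 to 1 calls when 1 array was left out, and 1 with quantile normalization in place of 0. With the spread taken from all 59 arrays, 58 probe sets were called without a block, and 59 with the animal as a random replicate block; the pairing by animal in the regional contrast left 0 calls both with and without the replicate block. Median centring gave 33 calls, 17 higher and 16 lower. In fits added after seeing the data, animals 1, 2, 7 and 8 alone gave 1 call, animals 3 to 6 and 9 to 12 alone gave 30, and the grouping of animals 1, 2, 7 and 8 against the rest as a covariate, without iP animal 1, gave 67. That grouping was seen in earlier results of these data and follows the beta-actin 3′ to 5′ ratio; as a covariate with all 12 arrays it gave 55. Leaving out cortex of iP animal 5 raised the called genes also called in cortex from 7 to 14. All other settings gave between 29 and 55 calls, and no called gene changed sign in any. Hs6st1 kept its call in every alternative run on it, 14 genes lost theirs only in the fit of animals 1, 2, 7 and 8, and 10 lost theirs in 10 or more of up to 29 alternatives. The cause of these changes was not tested, beyond the smaller number of arrays in the fits that leave arrays out.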

Other observations

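Of the 6 called amygdala probe sets without a single gene symbol, 2 were higher in iP, by 0.48 ± 0.09 and 0.74 ± 0.08 (log2, SE), and 4 were lower, 3 of them by differences of -0.48, -0.72 and -0.79, and one with means of 7.23 in iP and 9.23 in iNP. The brightest of the 6 averaged 14.16 in iP and 13.43 in iNP. Pdia4, a disulfide isomerase of the endoplasmic reticulum, did not overlap between the strains, at 9.40 to 9.91 in iP and 8.37 to 9.38 in iNP, but was not called (0.69 ± 0.16, limma adjusted p = 0.0640). Lyz2, the lysozyme of macrophages, differed by 0.62 ± 0.16 (limma adjusted p = 0.161), opposite in sign to P2ry12. Cryab, a small heat shock protein, differed by 0.46 ± 0.12 (limma adjusted p = 0.161).

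Several further lists held no called gene with all 12 arrays. These were 23 heat shock proteins and chaperones (median 0.10), 35 ribosomal proteins (median 0.02), 26 neurotrophins and growth factors (median -0.12), 16 genes of axon guidance (median -0.13) and 6 choroid plexus genes (median -0.09). The 10 tested amygdala markers had a median of -0.15, the 13 hippocampal markers -0.11, and the 8 thalamic and hypothalamic markers -0.03. The 7 cortex markers had a median of 0.20 with iP animal 1 and 0.04 without it.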
